A study of Rattus norvegicus with 40 samples.

Results

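The early response of an insulin-producing rat cell line to inflammatory cytokines was followed in the 7 arrays taken 1 h and 2 h after the start of exposure, out of 40 arrays in the series. The cells were INS-1E, an insulinoma-derived rat line whose label reads INS1. They were given 10 units/ml of recombinant human IL-1 together with 100 units/ml of recombinant murine IFN-γ (2 arrays at 1 h and 2 at 2 h) or kept in medium without these (2 arrays at 1 h and 1 at 2 h). Total RNA was labelled with biotin and hybridised to Affymetrix Rat ST arrays. The members are the arrays whose titles give the cytokine or control condition at 1 h or 2 h. The arrays at 0 h (2 cytokine, 2 control), 4 h and 6 h (4 cytokine and 2 control in all) served to show what went before and what followed. One characteristic of the cytokine arrays has IFN-beta where the other labels have IL-1; IL-1 was taken as the agent. RNA extraction is described in the labels as from islets, although the source given for each array is the cell line. The experiments were done on 2 occasions, and the labels do not say which arrays came from which occasion or whether arrays of a group came from separate cultures. All p-values therefore measure the spread between arrays, which may be technical.

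IL-1 acts through its receptor and the adaptor MyD88 to activate NF-kB, a transcription factor held in the cytoplasm by inhibitor proteins (the IkB family) that are destroyed when the pathway is switched on. IFN-γ acts through its receptor and the kinases JAK1 and JAK2. Short promoter elements called GAS serve the first set of IFN-γ target genes, among them the transcription factor IRF1. IRF1 and related factors act on a later set through the interferon-stimulated response element (ISRE). In beta cells the combination of these cytokines is known for leading, over many hours, to chemokine release, nitric oxide formation, loss of beta cell functions and cell death.

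The promoters of 8 genes that the results turn on are shown here, since they hold the elements just named. Each is the RefSeq sequence of 250 bases before to 50 after the gene's start on the rat build GRCr8, written 5′ to 3′ on the gene's strand, and capitals mark matches to the NF-kB consensus, to GAS (TTCNNNGAA) or to ISRE (GAAA, 2 bases of any kind and GAAA again) on either strand. Irf1 (chr10:38417685-38417984, plus strand) has the GAS TTCCCCGAA at -142 and the NF-kB match GGGGAATCCC at -65 from its start. Nfkbia (chr6:78597023-78597322, minus strand), the gene of an IkB protein, and Nfkbiz (chr11:58251471-58251770, plus strand), that of an IkB-like protein, have NF-kB matches. So do the chemokine genes Cxcl1 (chr14:17479272-17479571, minus strand) and Cxcl10 (chr14:15988816-15989115, plus strand), and Cxcl10 has an ISRE as well. Igtp (chr10:42874797-42875096, plus strand), Irgm (chr10:33742529-33742828, minus strand) and Parp14 (chr11:78407884-78408183, plus strand) have a GAS followed after 2 bases by an ISRE.
Irf1: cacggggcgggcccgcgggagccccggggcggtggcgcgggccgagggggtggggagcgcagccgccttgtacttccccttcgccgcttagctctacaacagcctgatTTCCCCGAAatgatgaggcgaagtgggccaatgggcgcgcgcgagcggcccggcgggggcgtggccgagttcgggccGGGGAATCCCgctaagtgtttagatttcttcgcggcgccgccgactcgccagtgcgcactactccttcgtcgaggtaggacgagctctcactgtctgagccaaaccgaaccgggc
Nfkbia: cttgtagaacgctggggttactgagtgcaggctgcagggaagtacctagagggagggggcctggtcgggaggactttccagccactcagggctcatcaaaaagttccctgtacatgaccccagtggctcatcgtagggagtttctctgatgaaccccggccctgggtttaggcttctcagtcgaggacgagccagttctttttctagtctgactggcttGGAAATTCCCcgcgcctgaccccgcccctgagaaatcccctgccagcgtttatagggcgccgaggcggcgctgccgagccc
Nfkbiz: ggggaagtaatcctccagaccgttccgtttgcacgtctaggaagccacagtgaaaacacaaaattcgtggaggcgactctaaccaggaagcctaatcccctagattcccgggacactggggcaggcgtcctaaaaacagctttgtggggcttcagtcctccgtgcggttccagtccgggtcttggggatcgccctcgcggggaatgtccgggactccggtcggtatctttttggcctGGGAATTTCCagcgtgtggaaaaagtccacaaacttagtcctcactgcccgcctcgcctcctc
Cxcl1: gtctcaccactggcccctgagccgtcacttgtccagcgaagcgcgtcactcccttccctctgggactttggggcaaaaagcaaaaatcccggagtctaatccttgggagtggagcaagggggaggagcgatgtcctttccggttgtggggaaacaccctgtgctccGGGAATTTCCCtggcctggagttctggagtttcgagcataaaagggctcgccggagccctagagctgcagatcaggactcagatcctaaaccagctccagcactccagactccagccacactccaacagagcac
Cxcl10: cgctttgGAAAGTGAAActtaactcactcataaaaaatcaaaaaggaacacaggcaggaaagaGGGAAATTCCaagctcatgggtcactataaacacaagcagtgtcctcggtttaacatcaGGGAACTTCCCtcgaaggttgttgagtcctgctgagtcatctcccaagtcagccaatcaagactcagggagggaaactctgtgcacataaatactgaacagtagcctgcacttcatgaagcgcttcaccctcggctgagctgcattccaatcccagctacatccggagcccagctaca
Igtp: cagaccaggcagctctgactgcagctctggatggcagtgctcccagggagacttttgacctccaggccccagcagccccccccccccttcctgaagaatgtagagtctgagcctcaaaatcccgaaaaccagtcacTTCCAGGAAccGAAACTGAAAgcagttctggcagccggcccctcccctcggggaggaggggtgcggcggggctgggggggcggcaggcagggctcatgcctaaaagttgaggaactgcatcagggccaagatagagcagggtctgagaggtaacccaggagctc
Irgm: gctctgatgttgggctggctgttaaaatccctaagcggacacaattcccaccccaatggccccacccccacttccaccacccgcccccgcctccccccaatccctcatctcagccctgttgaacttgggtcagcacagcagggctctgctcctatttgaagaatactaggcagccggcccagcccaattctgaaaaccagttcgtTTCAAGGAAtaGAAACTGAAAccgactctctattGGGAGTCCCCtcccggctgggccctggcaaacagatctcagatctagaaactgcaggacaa
Parp14: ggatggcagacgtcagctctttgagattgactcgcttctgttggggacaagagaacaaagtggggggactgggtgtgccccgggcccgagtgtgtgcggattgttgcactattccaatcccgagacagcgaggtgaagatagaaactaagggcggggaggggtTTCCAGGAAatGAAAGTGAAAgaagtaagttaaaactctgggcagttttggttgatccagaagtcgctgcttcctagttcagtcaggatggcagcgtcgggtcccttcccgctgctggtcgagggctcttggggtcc

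Within 2 h the cytokines raised 90 genes and lowered 6 among 16587 tested, that is 0.579% of genes in either direction, 0.543% upward and 0.0362% downward. A gene was called when limma's moderated test of the cytokine minus control difference in log2 signal, averaged over the 1 h and 2 h arrays, had a Benjamini-Hochberg adjusted p under 0.05; of the higher genes 50 rose at least 2-fold and of the lower genes 0 fell that far. At 1 h alone 17 genes were called, all higher (0.102%), and at 2 h 93 genes were called, 88 higher and 5 lower (0.561% in all, 0.531% higher and 0.0301% lower). The 17 genes were all called at 2 h too, and every one of the 90 had a larger difference at 2 h than at 1 h. The median difference of the 90 genes was 0.58 at 1 h and 1.56 at 2 h on the log2 scale, against a median of -0.01 for the mean of both hours over all genes. At 0 h limma called 0 genes, with 556 at an unadjusted p under 0.05, and the 90 genes had a median 0 h difference of 0.08. In 82 of the 90 genes all 4 cytokine arrays lay above all 3 control arrays, which was so for 4.21% of all genes tested. The genes were called on these same arrays, by a mean that includes the 2 h difference with its 1 control array. The counts among the 90, that of larger differences at 2 h included, thus describe the calls and do not test them.

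Some features of the arrays bear on these counts. The only control array at 2 h was assumed to vary like the groups of 2 arrays; without it the comparison is that of 1 h, with 17 calls. When it was replaced by the control 1 h arrays, 65 of the 90 genes were still called higher. Without control 1 h replicate 2 the calls were 218, 119 higher and 99 lower. The control 1 h arrays were the least alike of the early pairs, with an SD of the difference between replicates over genes of 0.32 log2, against 0.25 for cytokine 1 h and 0.24 for cytokine 2 h. Markers of the labelled cell type were present in both arms: 8 measured beta cell markers ranged from 7.76 to 14.41 log2 signal in cytokine arrays and from 7.92 to 14.35 in control arrays. The 5 leukocyte markers stayed at or below 5.47 in cytokine arrays and 5.44 in control arrays. The 5 markers of other islet cells reached 10.01 in cytokine arrays and 9.83 in control arrays (both for the glucagon gene Gcg), and 4 stromal markers 6.97 and 7.39. Of these and the endothelial, acinar and duct markers, 30 in all, 0 were called in the mean, and the endothelial marker Cdh5 was called lower at 2 h (-0.90, adjusted p = 0.0142). Laptm5, from a longer list of leukocyte genes, was called lower in the mean (-0.53, adjusted p = 0.0174). As only 0.579% of all genes tested were called in the mean, 0 of 30 markers is near that share.

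**Figure D1:**
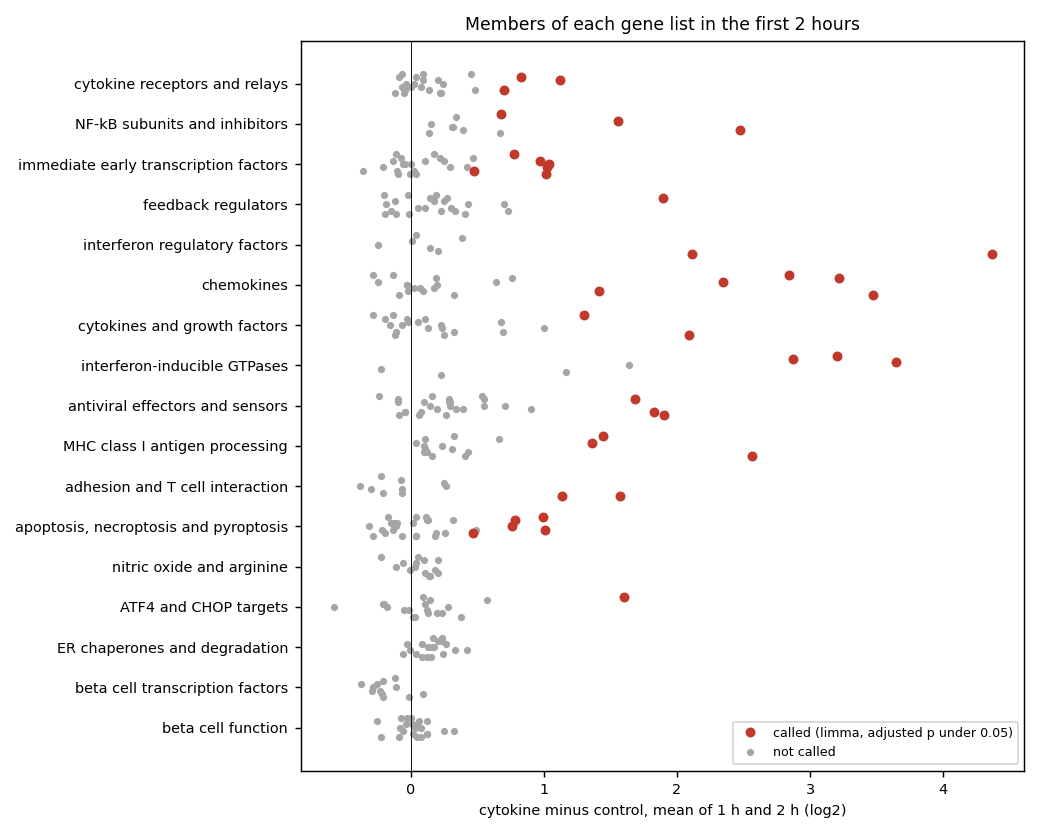
Difference in log2 signal between cytokine and control arrays, averaged over 1 h and 2 h (x axis), for every measured member of 17 gene lists (rows; the vertical scatter within a row has no meaning). Red points are genes called by limma; they reach 4.36 among interferon regulatory factors, and the nitric oxide, ER chaperone, beta cell transcription factor and beta cell function lists hold none.

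A pair of interferon regulatory factors rose within 1 h, and one of them, Irf1, had the largest difference of all genes tested. Irf1, the transcription factor described above, had log2 signals of 10.89 and 10.43 in cytokine arrays at 1 h and 11.74 and 11.47 at 2 h, against 7.02 and 6.67 in control arrays at 1 h and 6.69 at 2 h. The arms were far apart at both hours. Its log2 difference was 3.81 ± 0.33 at 1 h (SE, 2 against 2 arrays; adjusted p = 1.1e-06) and 4.91 ± 0.40 at 2 h (2 against 1 array; adjusted p = 1.79e-07). At 2 h that was a 30.1-fold difference. Irf9, the DNA-binding partner of STAT2 in a complex that acts on ISREs, had log2 signals of 7.97, 7.79, 8.98 and 8.54 in cytokine arrays, against 6.11, 6.61 and 6.07 in control arrays. This is a log2 difference of 2.11 over both hours (adjusted p = 1.39e-07) with no overlap between arms. Of the 8 measured family members these 2 were called. Irf7, which amplifies interferon responses, differed by 0.38 (adjusted p = 0.658), and Irf2, known as an antagonist of Irf1, by 0.20 (adjusted p = 0.728).

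Among 23 measured receptors and relays of the cytokine pathways 3 were called, all of them higher and none of them receptors. Stat2, the partner of Irf9, had log2 signals of 7.53, 7.41, 8.56 and 8.28 in cytokine arrays, against 6.64, 7.23 and 6.70 in control arrays. Its log2 difference was 1.12 (adjusted p = 0.00298). Stat3, a transcription factor activated by several cytokine receptors, had 9.80, 9.61, 10.70 and 10.56 in cytokine arrays, against 9.26, 9.52 and 9.29 in control arrays. It differed by 0.83 (adjusted p = 0.000535). Map3k8, a kinase that links NF-kB signalling to the ERK pathway, differed by 0.70 (adjusted p = 0.0136). Its call was lost without cytokine 1 h replicate 1 (adjusted p = 0.0752) or cytokine 2 h replicate 2 (adjusted p = 0.0654). The receptor genes and their kinases were not called. The difference was 0.45 for Il1r1, the signalling receptor of IL-1 (adjusted p = 0.442, and 0.0369 with a block for the replicate number). Differences were 0.22 for Ifngr1 and 0.14 for Ifngr2, the chains of the IFN-γ receptor (adjusted p = 0.673 and 0.79), and 0.24 for Jak2 and 0.08 for Jak1. Jak2 was called later, with a log2 difference of 1.50 over 4 h and 6 h (adjusted p = 7.02e-06).

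In the list of NF-kB inhibitors and subunits 3 genes of IkB or IkB-like proteins rose, and none of the subunit genes was called in the mean. Nfkbia, which encodes IkBα, the inhibitor that holds NF-kB in the cytoplasm, had log2 signals of 9.99 and 9.97 in cytokine arrays at 1 h and 10.16 and 10.52 at 2 h, against 8.62 and 8.59 in control arrays at 1 h and 8.60 at 2 h. Its level at 2 h was thus only slightly above that at 1 h, and the difference was 1.37 at 1 h and 1.74 at 2 h (adjusted p = 1.02e-06 and 1.79e-07). Nfkbiz, a nuclear IkB-like protein that steers NF-kB on a subset of its targets, had 8.75, 8.84, 9.25 and 9.68 in cytokine arrays, against 6.79, 6.68 and 6.57 in control arrays. Its log2 difference was 2.48 ± 0.13 (adjusted p = 1.87e-10). Nfkbid, another nuclear IkB-like protein, differed by 0.68 (adjusted p = 0.00236). Nfkbie, a cytoplasmic inhibitor, was called at 2 h only by the test of that hour (1.16, adjusted p = 0.0288), and in the mean with the block (adjusted p = 0.0484). Of the 10 measured genes of this list 3 were called in the mean. The subunit genes Nfkb1, Nfkb2, Rel and Rela differed by 0.14, 0.39, 0.32 and 0.16 in the mean, with adjusted p-values of 0.832, 0.447, 0.444 and 0.724. Nfkb1 and Nfkb2 were called over 4 h and 6 h (0.90 and 1.08, adjusted p = 0.000313 and 9.12e-05).

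Of 7 measured interferon-inducible GTPases, proteins that attack the vacuoles of intracellular microbes, 3 rose within 1 h and a further one at 2 h. Igtp had log2 signals of 9.18 and 8.76 in cytokine arrays at 1 h and 11.23 and 10.96 at 2 h, against 6.32 and 6.81 in control arrays at 1 h and 6.21 at 2 h. Irgm had 8.29 and 8.02 in cytokine arrays at 1 h and 10.51 and 10.33 at 2 h, against 6.56 and 6.49 in control arrays at 1 h and 6.31 at 2 h. Both genes were far higher in the cytokine arrays at 2 h than at 1 h, with arms that did not overlap, and the 2 h differences were 4.89 for Igtp (adjusted p = 1.79e-08) and 4.11 for Irgm (adjusted p = 4.13e-08). Ifi47, of the same family, had 9.59, 9.16, 11.55 and 11.25 in cytokine arrays, against 7.29, 7.11 and 7.18 in control arrays (log2 difference 3.20 over both hours, adjusted p = 3.72e-08). Gbp5, a guanylate-binding protein, had 5.42 and 5.35 in cytokine arrays at 1 h and 7.97 and 8.07 at 2 h, against 5.08 and 4.65 in control arrays at 1 h and 5.26 at 2 h. It was called at 2 h (2.76, adjusted p = 0.0316) and not in the mean (adjusted p = 0.0602, and 0.009 with the block for the replicate number). Gbp2 differed by 2.04 at 2 h (adjusted p = 0.102) and by 1.17 in the mean (adjusted p = 0.193, and 0.0114 with the block), and Gbp1 by 0.03 at 2 h (adjusted p = 0.996). All 7 were called higher over 4 h and 6 h.

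The antiviral effectors, classical targets of interferon, were mostly not called in this window. Of 27 measured members 3 were called in the first 2 h, all higher, where 0.543% of all genes tested were called higher. Over 4 h and 6 h 25 were called higher, where 2.97% of all genes were. The early members were Parp14 and Parp9, ADP-ribosyltransferases, and Dtx3l, the ubiquitin ligase that pairs with Parp9. Parp14 had log2 signals of 6.52 and 6.19 in cytokine arrays at 1 h and 8.67 and 8.31 at 2 h, against 5.60 and 5.89 in control arrays at 1 h and 5.29 at 2 h. Most of its difference arose in the second hour (0.61 at 1 h, adjusted p = 1, and 3.20 at 2 h, adjusted p = 8.73e-07). Parp9 and Dtx3l differed by 2.56 and 2.91 at 2 h (adjusted p = 7.62e-06 and 2.21e-05). Mx2, Ifit1 and Rsad2, effectors against viral replication, differed by 0.08, -0.24 and -0.09 in the mean of 1 h and 2 h, and by 5.87, 4.35 and 3.83 over 4 h and 6 h. Rtp4, which restrains interferon responses in mice, had 5.45 and 5.48 in cytokine arrays at 1 h and 7.94 and 7.65 at 2 h, against 5.40 and 5.24 in control arrays at 1 h and 4.99 at 2 h. The cytokine arrays of Rtp4 at 1 h lay just above the control arrays, and those at 2 h far above all others.

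Chemokines that recruit neutrophils and T cells were among the genes with the largest differences, 5 of 21 measured being called. Cxcl1, a neutrophil attractant and NF-kB target, had log2 signals of 10.12 and 10.20 in cytokine arrays at 1 h and 11.28 and 11.86 at 2 h, against 7.13 and 6.74 in control arrays at 1 h and 7.84 at 2 h. Its log2 difference was 3.22 at 1 h (adjusted p = 4.15e-08), larger at that hour than for any gene but Irf1, and 3.72 at 2 h. Cxcl10 encodes a ligand of CXCR3, a chemokine receptor on T cells, and is known to respond to both cytokines. Cxcl10 had 9.52 and 9.39 in cytokine arrays at 1 h and 11.36 and 11.54 at 2 h, against 7.18 and 7.46 in control arrays at 1 h and 7.15 at 2 h. Its log2 difference was 2.13 ± 0.20 at 1 h (SE; adjusted p = 2.69e-06) and 4.31 ± 0.24 at 2 h (adjusted p = 1.52e-09). The other CXCR3 ligands, Cxcl11 and Cxcl9, differed by 2.84 and 2.34 in the mean, Cxcl11 being called at 1 h (adjusted p = 0.00502) and Cxcl9 not (adjusted p = 0.0604). Cxcl2, a relative of Cxcl1, differed by 1.41 (adjusted p = 5.06e-05). Ccl2, a monocyte attractant, was called at 2 h (1.12, adjusted p = 0.0496), and Ccl20 at neither hour (0.50 at 1 h and 1.03 at 2 h, adjusted p = 1 and 0.206).

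Of 21 measured cytokines and growth factors Csf1 and Tnf were called. Csf1, the growth factor of macrophages, had log2 signals of 7.57 and 7.25 in cytokine arrays at 1 h and 9.03 and 9.22 at 2 h, against 6.10 and 6.57 in control arrays at 1 h and 6.02 at 2 h (2.09 in the mean, adjusted p = 1.39e-07). Tnf, the cytokine TNF, had 6.97, 6.47, 7.48 and 7.66 in cytokine arrays, against 6.03, 5.93 and 5.71 in control arrays (1.30, adjusted p = 3.85e-06), with no overlap between arms. Tnfsf10, which encodes the death ligand TRAIL, had 5.40 and 5.39 in cytokine arrays at 1 h and 7.95 and 7.59 at 2 h, against 5.59 and 5.86 in control arrays at 1 h and 5.43 at 2 h. It lay below the control arrays at 1 h and above them at 2 h, and was called at 2 h (2.34, adjusted p = 0.00447). The mean of 1.00 had an adjusted p of 0.135, and of 0.0024 with the block for the replicate number. Lif and Il15 were not called in the mean (0.68 and 0.70, adjusted p = 0.156 and 0.304), Lif being called with the block (adjusted p = 0.00196). Outside the lists, the growth factor genes Pdgfa and Bmp2 rose by 1.80 and 1.53 in the mean (adjusted p = 1.79e-08 and 1.89e-05).

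**Figure D2:**
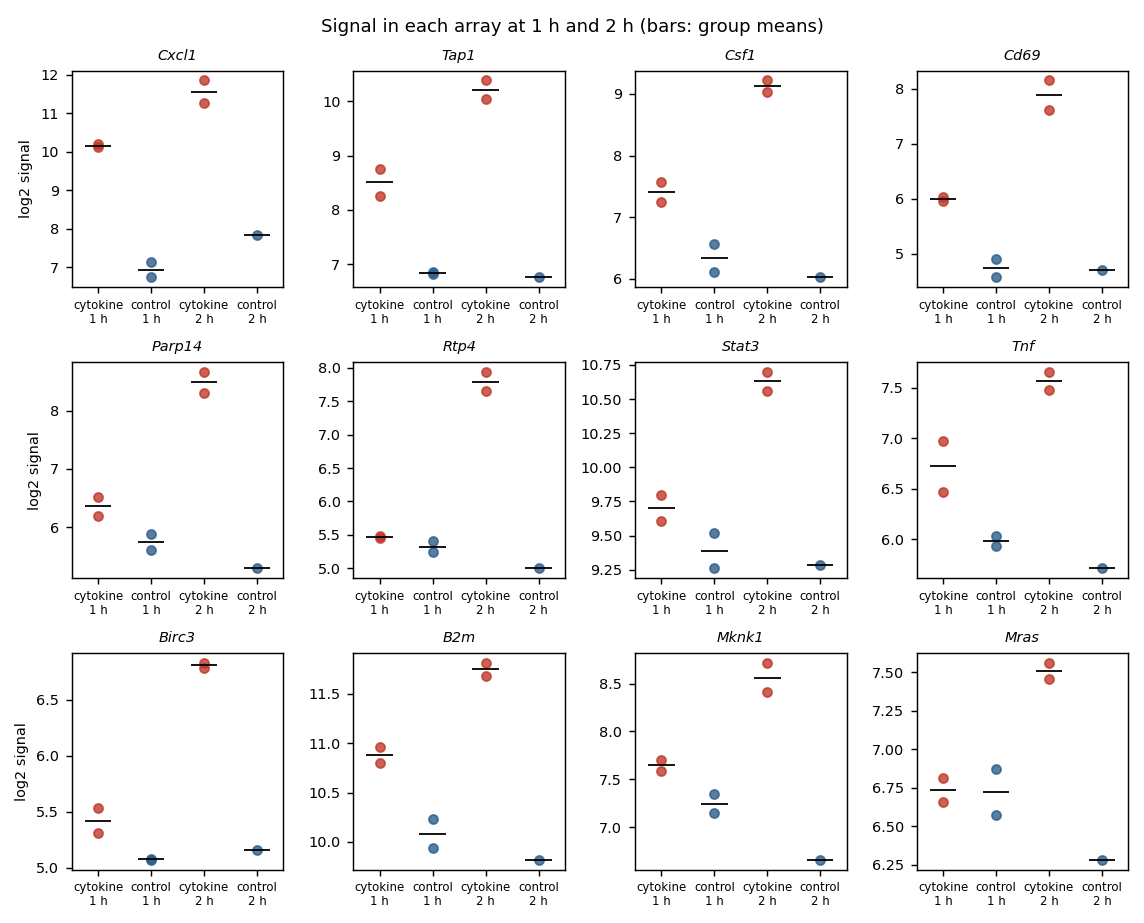
Log2 signal (y axes, each on its own scale) of 12 genes in the cytokine arrays (red) and control arrays (blue) at 1 h and 2 h; points are arrays, bars group means, and the control group at 2 h has 1 array. Cxcl1 was already at 10.12 and 10.20 in cytokine arrays at 1 h, whereas Rtp4 stood at 5.45 and 5.48 at 1 h and at 7.94 and 7.65 at 2 h.

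Of 16 measured genes of MHC class I peptide loading, Tap1, B2m and Psmb9 rose in the first 2 h. Tap1, which pumps peptides into the endoplasmic reticulum, had log2 signals of 8.75 and 8.26 in cytokine arrays at 1 h and 10.38 and 10.05 at 2 h, against 6.86 and 6.82 in control arrays at 1 h and 6.76 at 2 h. Its difference was 1.67 at 1 h (adjusted p = 0.00296) and 3.45 at 2 h (adjusted p = 5.86e-07). B2m, the invariant light chain of class I, had 10.80, 10.96, 11.68 and 11.81 in cytokine arrays, against 9.94, 10.23 and 9.82 in control arrays (1.36 in the mean, adjusted p = 3.29e-05). Psmb9, an immunoproteasome subunit, differed by 1.44 (adjusted p = 0.019), a call lost without control 1 h replicate 2 (adjusted p = 0.0523), cytokine 1 h replicate 1 (adjusted p = 0.0842) or cytokine 2 h replicate 1 (adjusted p = 0.0883). Over 4 h and 6 h 13 of the 16 were called. Psmb8, the neighbouring immunoproteasome subunit, differed by 0.66 and Tap2, the partner of Tap1, by 0.10 in the mean (adjusted p = 0.588 and 0.934). Of 11 MHC class II genes 0 were called in the first 2 h. As only 0.579% of all genes tested were called, 0 of 11 is near that share.

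Of 11 measured molecules of adhesion and T cell contact, Icam1 and Cd274 rose. Icam1, the ligand of leukocyte integrins, had log2 signals of 7.60 and 7.31 in cytokine arrays at 1 h and 9.08 and 9.30 at 2 h, against 6.72 and 6.67 in control arrays at 1 h and 6.81 at 2 h. The control arrays lay close together, and the difference was 0.76 at 1 h (adjusted p = 0.0117) and 2.38 at 2 h (adjusted p = 1.79e-08). The 1 h call of Icam1 was lost without control 1 h replicate 1 (adjusted p = 0.134), control 1 h replicate 2 (adjusted p = 0.0562) or cytokine 1 h replicate 1 (adjusted p = 0.597). Cd274, which encodes the T cell inhibitor PD-L1, differed by 1.14 in the mean (adjusted p = 0.019). Leaving out control 1 h replicate 1, either cytokine 1 h array or cytokine 2 h replicate 1 gave adjusted p-values of 0.0553 to 0.111. Cd69, known as an early activation antigen of lymphocytes and in none of the lists, had 6.04 and 5.96 in cytokine arrays at 1 h and 7.61 and 8.15 at 2 h, against 4.91 and 4.58 in control arrays at 1 h and 4.70 at 2 h. It was called at both hours (1.25 and 3.18, adjusted p = 0.00195 and 2.04e-08). The lymphocyte marker Cd3e stood at 4.05, 4.21, 4.18 and 4.08 in cytokine arrays, against 4.59, 4.05 and 4.47 in control arrays, and was not called.

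Of 26 measured immediate early transcription factors 6 were called higher, and none at 1 h. Several genes of this class were high at 1 h in both arms. Egr1, a serum-response transcription factor, had log2 signals of 9.99 and 10.08 in cytokine arrays at 1 h and 8.59 and 8.56 at 2 h, against 9.32 and 10.08 in control arrays at 1 h and 7.98 at 2 h. At 0 h its control arrays stood at 8.49 and 8.43, so that the level at 1 h was higher without cytokines too, and the difference between arms was not called (0.46 in the mean, adjusted p = 0.529). Junb, an AP-1 subunit, had 9.03 and 9.07 in cytokine arrays at 1 h and 8.54 and 9.00 at 2 h, against 8.10 and 8.67 in control arrays at 1 h and 7.35 at 2 h. Its log2 difference in the mean was 1.04 (adjusted p = 0.00318), and 0.52 with the control 1 h arrays as the reference of both hours (adjusted p = 0.642). The same change of reference gave 0.39 for Jun (adjusted p = 0.905) against 1.02 with the control 2 h array (adjusted p = 0.0123), and 0.53 for Ier3 (adjusted p = 0.378) against 0.97 (adjusted p = 0.00092). The calls of Maff and Klf2, transcription factors of the small Maf and Krüppel-like families, rested less on that array: Maff differed by 0.74 at 1 h and 1.30 at 2 h, and Klf2 by 0.66 and 0.90. Klf6, another Krüppel-like factor, differed by 0.48 (adjusted p = 0.0385). It was not called with quantile normalization (adjusted p = 0.0783), median centring (0.0536), the control 1 h arrays as reference (0.182). Leaving out 1 of the 4 cytokine arrays, or control 1 h replicate 1, also ended the call (0.0673 to 0.244). Fos, Atf3, Nr4a1 and Dusp1 were not called, with differences of 0.04, 0.42, 0.00 and 0.06 in the mean.

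Among the 23 measured feedback regulators Zfp36 was called. Zfp36 encodes tristetraprolin, which destabilises cytokine mRNAs. It had log2 signals of 10.11 and 10.44 in cytokine arrays at 1 h and 9.21 and 9.38 at 2 h, against 8.14 and 9.15 in control arrays at 1 h and 7.14 at 2 h. Both arms were thus lower at 2 h than at 1 h, and the difference between them was 1.63 at 1 h (adjusted p = 0.00251) and 2.15 at 2 h (adjusted p = 0.000265). Zc3h12a, an endonuclease that degrades cytokine mRNAs, had 5.89 and 5.98 in cytokine arrays at 1 h and 7.22 and 7.13 at 2 h, against 5.93 and 5.78 in control arrays at 1 h and 5.79 at 2 h. It was called at 2 h (1.39, adjusted p = 0.0161) and, with the block for the replicate number, in the mean (adjusted p = 0.0112). Socs1 and Socs3, inhibitors of JAK signalling, were not called (0.41 and 0.30 in the mean, adjusted p = 0.655 and 0.415). Socs1 had 7.31 and 7.01 in cytokine arrays at 1 h and 8.18 and 7.84 at 2 h, against 7.26 and 6.90 in control arrays at 1 h and 7.28 at 2 h. The cytokine arrays at 2 h lay above all others. Arid5a, an RNA-binding protein that stabilises cytokine mRNAs in mice, was one of the 17 genes called at 1 h (1.08, adjusted p = 0.00543) and differed by 1.32 at 2 h.

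Genes of cell death and survival signalling differed by about 2-fold or less in the mean of both hours and by up to 3.13-fold at 2 h (Birc3), 5 of 29 measured members being called. Birc3, a ubiquitin ligase that blocks death signalling and an NF-kB target, had log2 signals of 5.53 and 5.31 in cytokine arrays at 1 h and 6.79 and 6.83 at 2 h, against 5.07 and 5.08 in control arrays at 1 h and 5.16 at 2 h (0.99 in the mean, adjusted p = 0.00055). Fas, a death receptor, differed by 1.01 (adjusted p = 0.00236) and Tnfrsf1a, the main TNF receptor, by 0.78 (adjusted p = 0.000175). Ripk1, the kinase below that receptor, differed by 0.47 (adjusted p = 0.00335). Mlkl, the executor of necroptosis, differed by 0.76 (adjusted p = 0.0352), a call that was lost without control 1 h replicate 1 (adjusted p = 0.208), either cytokine 1 h array (0.122 and 0.0972) or cytokine 2 h replicate 1 (0.185). The call of Mlkl was also lost with the control 1 h arrays as the reference of both hours (0.66, adjusted p = 0.255) and with quantile normalization (adjusted p = 0.0505). Ripk2, the kinase of NOD receptors and in none of these lists, had 7.99 and 8.12 in cytokine arrays at 1 h and 9.85 and 9.89 at 2 h, against 7.08 and 7.67 in control arrays at 1 h and 7.11 at 2 h (1.72 in the mean, adjusted p = 4.3e-06). Gadd45b, listed with the ATF4 and CHOP targets and also known as an NF-kB target with a protective role, had 9.34 and 9.40 in cytokine arrays at 1 h and 9.36 and 9.52 at 2 h, against 7.90 and 8.18 in control arrays at 1 h and 7.56 at 2 h. Its cytokine level was nearly the same at both hours, and it was the only called one of 19 measured members of that list (1.60, adjusted p = 1.47e-05). Ddit3, which encodes CHOP, differed by 0.23 (adjusted p = 0.74).

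Of the other genes that stood out, several regulate signalling at the membrane or transcription. Rgs2, which shortens G protein signalling, had log2 signals of 6.77, 6.86, 7.42 and 7.67 in cytokine arrays, against 5.81, 5.65 and 4.86 in control arrays. Its mean difference of 1.89 (adjusted p = 0.000626) was not called at 1 h alone (adjusted p = 1). Gna13, a G protein subunit, Runx1, a transcription factor, Sgk1, a kinase induced by stress and hormones, and Hmox1, heme oxygenase, rose by 1.16, 0.95, 1.06 and 0.97 in the mean. Their adjusted p-values were 8.37e-06, 0.000453, 0.00055 and 0.00562. Serping1, the inhibitor of complement C1, and Ubd, a ubiquitin-like modifier, rose by 1.65 and 1.61 (adjusted p = 4.42e-06 and 0.00121).

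In 14 genes the difference between arms grew from the first to the second hour beyond the spread between arrays. Limma's test of the 2 h difference minus the 1 h difference called these 14, all with a larger difference at 2 h (0.0844% of genes tested), and all were among the 90. They were the GTPases Igtp and Irgm, the chemokines Cxcl9 and Cxcl10, Parp14, Rtp4, Csf1, Cd69, Icam1, Ripk2, Pdgfa, Akap12, a scaffold of protein kinases, Mknk1, a kinase of the translation factor eIF4E, and Mras, a Ras-like GTPase. Their differences ran from 0.01 to 2.40 at 1 h and from 1.23 to 4.89 at 2 h, and the growth from 1.21 for Mras to 2.66 for Rtp4. In all 14 both cytokine arrays at 2 h lay above both at 1 h. The control level at 2 h lay between 0.58 below and 0.11 above that at 1 h. The 14 genes were called on these same arrays, so this describes the calls and does not test them. The count was 25 with a block for the replicate number, and all 14 were called there. With the control 1 h arrays as the reference of both hours the control cancels out of this difference. What remains is the change in cytokine arrays alone, which was called in all 14 and does not test the role of the control 2 h array. Leaving out cytokine 1 h replicate 2 left 1 call (Icam1), and leaving out cytokine 2 h replicate 1 left 5 (Cd69, Cxcl10, Cxcl9, Icam1 and Parp14). Leaving out cytokine 2 h replicate 2 left 7 of the 14, and leaving out control 1 h replicate 2 left 6.

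**Figure D3:**
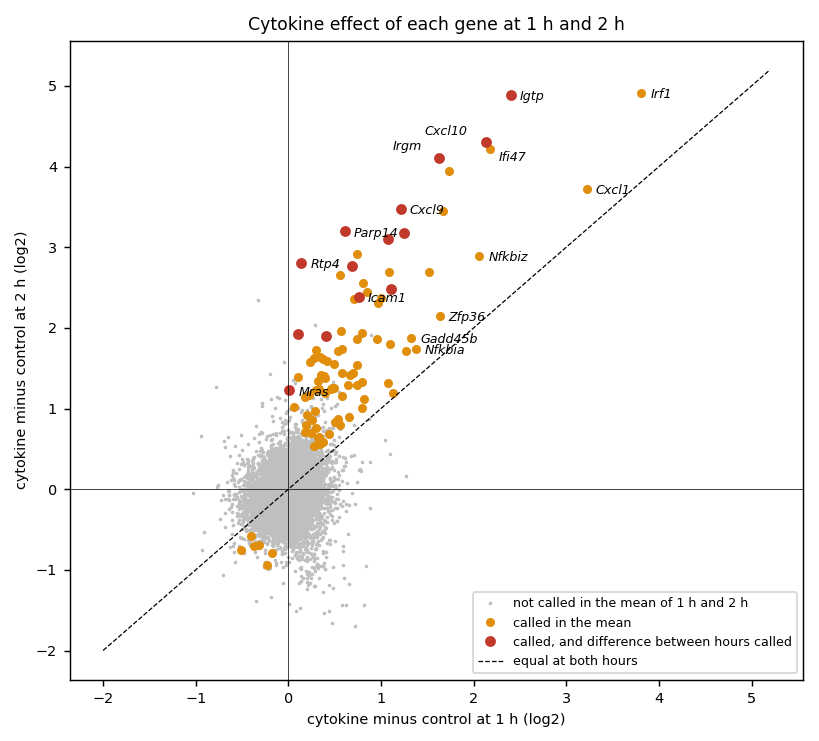
Cytokine minus control difference in log2 signal at 1 h (x axis) and at 2 h (y axis) of each of 16587 genes; orange and red points were called in the mean of both hours, red ones also in the test of the difference between hours, and the dashed line marks equal differences. Irf1 (3.81 and 4.91), Cxcl1 (3.22 and 3.72) and Nfkbia (1.37 and 1.74) lie nearer the line than Rtp4 (0.14 and 2.80).

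Of the 17 genes called at 1 h, growth was called in 6 (Cd69, Cxcl10, Icam1, Igtp, Irgm and Pdgfa) and not in 11, where adjusted p-values ran from 0.0654 to 1. The 2 h minus 1 h change in the difference was 1.10 for Irf1, 0.50 for Cxcl1, 0.83 for Nfkbiz, 0.37 for Nfkbia and 0.52 for Zfp36, with adjusted p-values from 0.906 to 1. The 17 genes called at 1 h were Irf1, Irf9, the GTPases Igtp, Irgm and Ifi47, the chemokines Cxcl1, Cxcl10 and Cxcl11, Tap1, Nfkbia, Nfkbiz, Zfp36, Gadd45b, Arid5a, Cd69, Icam1 and Pdgfa. Without control 1 h replicate 1, 8 of them were called, and without cytokine 1 h replicate 1, 9; Irf1, Cxcl1, Cxcl10, Nfkbia, Nfkbiz and Igtp were called in both cases. The other 11 each lost their call at 1 h without at least 1 of the 4 arrays of that hour, with adjusted p-values of 0.0513 to 0.597 there and a positive difference in every case. In 86 of the 90 higher genes the cytokine mean itself was higher at 2 h than at 1 h. In the remaining 4, Zfp36, Jun, Junb and Ier3, it was lower at 2 h, and the larger difference at 2 h went with a lower control array. A control level lower at 2 h than at 1 h was seen in 69 of the 90 genes, these 4 included. As the 90 were called on these same arrays, the counts of 86 and 69 describe the calls and do not test them. The shares over all genes were not counted.

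Most of the early genes were also higher over 4 h and 6 h. The levels in those arrays did not enter the early differences, but the spread between their replicates entered the variance of the common fit. Over 4 h and 6 h 75 of the 90 were called higher, where 2.97% of all genes tested were called higher, with a median difference of 1.51. A further rise from the first 2 h to 4-6 h was called in 31 of them and a fall in 1, Nfkbiz. Nfkbiz had log2 signals of 8.29 and 8.23 at 4 h and 8.45 and 8.24 at 6 h in cytokine arrays, against 6.61 at 4 h and 6.93 at 6 h in control arrays, and its difference changed by -0.94 (adjusted p = 0.0153). The largest further rises among the 90 were 3.58 for Samd9, an antiviral factor whose early call was lost without control 1 h replicate 1 (adjusted p = 0.121) or a replicate 2 cytokine array (0.133 at 1 h and 0.155 at 2 h), 3.30 for Ubd, 3.20 for Parp14 and 2.73 for Rtp4. The 15 early genes not called over 4 h and 6 h had differences of 0.01 to 0.93 there, and included Rgs2, Mknk1, Mras, Runx1, Sgk1, Hmox1, Maff, Klf2 and Klf6. The change between the windows was called for none of the 15. Irf1 stayed near its early level, with a difference of 3.99 over 4 h and 6 h.

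Inducible nitric oxide synthase, the enzyme behind nitric oxide in cytokine-treated beta cells, was not among the early genes. Nos2 had log2 signals of 6.38 and 5.98 in cytokine arrays at 1 h and 6.90 and 6.27 at 2 h, against 6.52 and 5.63 in control arrays at 1 h and 6.39 at 2 h, and the arms overlapped. At 4 h it stood at 8.71 and 9.89 and at 6 h at 9.55 and 10.09 in cytokine arrays, against 6.04 at 4 h and 6.07 at 6 h in control arrays. The log2 difference was 0.15 in the first 2 h (adjusted p = 0.943) and 3.51 over 4 h and 6 h (adjusted p = 2.61e-06), and the change between the windows was called (3.36, adjusted p = 0.000917). Nos2 was not alone in this: 417 genes were called higher over 4 h and 6 h and not in the mean of 1 h and 2 h (11 of them were called at 2 h alone), with a median early difference of 0.15. The test of the change between windows called 181 genes, 170 of them upward and 11 downward (1.09%, 1.02% and 0.0663% of genes). The class II chaperone Cd74, with an early difference of -0.30 and a later one of 2.80, and the lymphotoxin gene Ltb, with 0.33 and 2.45, were of this kind. Without the control 4 h array the change between windows was called for 105 genes and without the control 6 h array for 79.

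**Figure D4:**
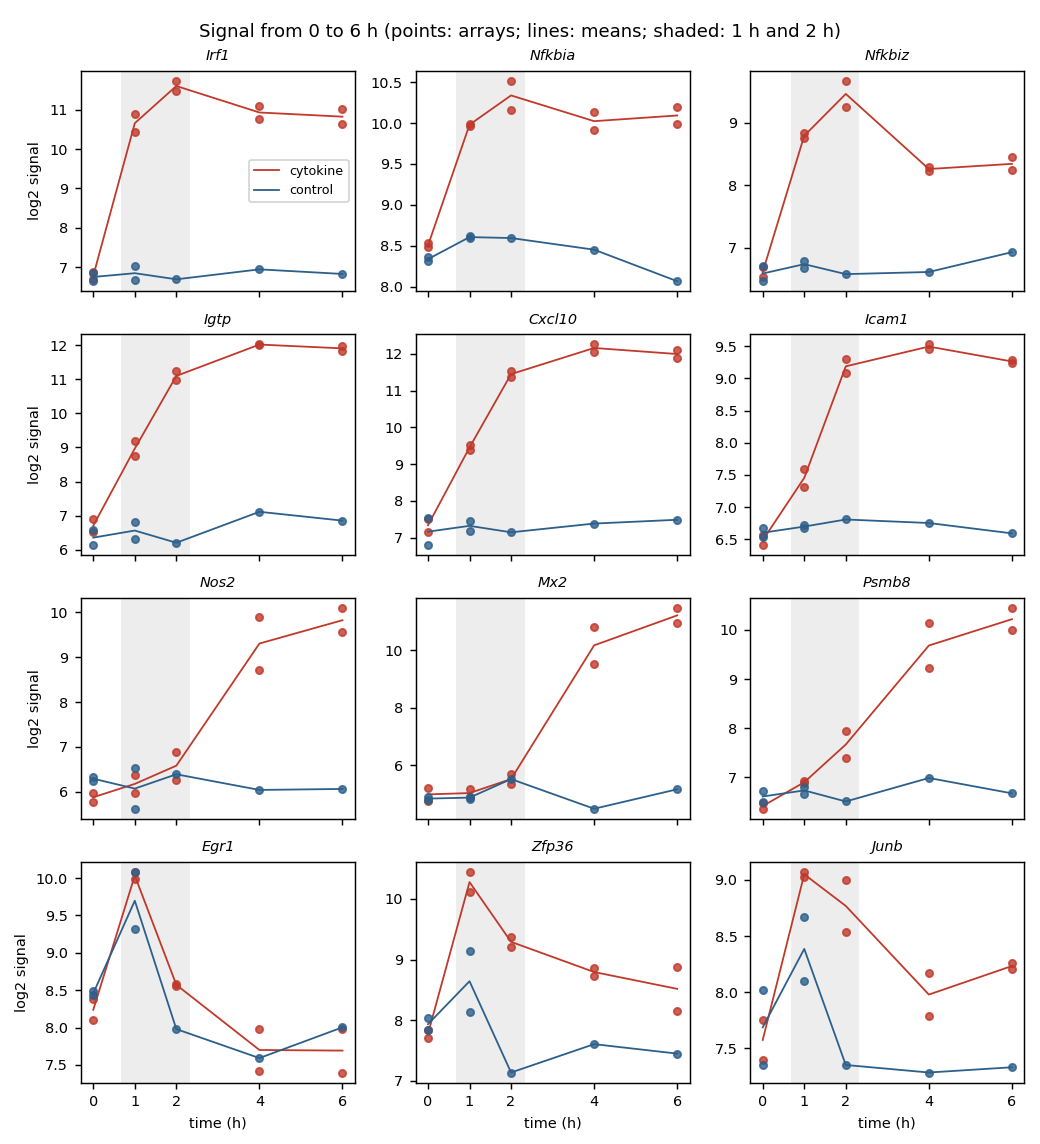
Log2 signal (y axes, each on its own scale) from 0 to 6 h (x axis) of 12 genes in cytokine arrays (red) and control arrays (blue); points are arrays, lines join group means, and the shaded band covers 1 h and 2 h. Irf1, Nfkbia and Nfkbiz were high in cytokine arrays from 1 h, Nos2, Mx2 and Psmb8 reached their levels at 4 h and 6 h, and Egr1 was high at 1 h in both arms.

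The genes of beta cell identity and function were not called in the first 2 h. Of 12 measured beta cell transcription factors and 22 genes of beta cell function 0 passed the test, as did 0 of 19 ER chaperones and degradation factors, 0 of 19 glycolytic enzymes, 0 of 22 cell cycle genes and 0 of 14 genes of nitric oxide and arginine metabolism. As only 0.579% of all genes tested were called, 0 in lists of this size is near that share. At an unadjusted p under 0.05 the numbers were 3 beta cell transcription factors, 1 gene of beta cell function and 1 ER gene. The same held for 4 glycolytic enzymes, 2 cell cycle genes, 1 gene of nitric oxide and arginine metabolism and 1316 of all 16587 genes. Ins2, insulin 2, had log2 signals of 13.29, 13.47, 13.33 and 13.51 in cytokine arrays, against 13.21, 13.34 and 13.28 in control arrays, and differed by 0.12 (adjusted p = 0.778). Slc2a2, the glucose transporter of beta cells, differed by 0.03 and Mafa, an activator of the insulin genes, by -0.01. The smallest p among the transcription factors was that of Isl1, a LIM homeodomain factor, with 9.82, 10.02, 9.79 and 9.60 in cytokine arrays, against 10.10, 9.98 and 10.32 in control arrays. This is a difference of -0.38 (adjusted p = 0.134, and 0.0318 with the block for the replicate number) with overlapping arms. In the glycolysis list Pfkfb3, the activator of phosphofructokinase, had 10.54, 10.07, 11.06 and 11.21 in cytokine arrays, against 9.41, 9.42 and 9.23 in control arrays. Its arms did not overlap, and its difference of 1.40 had an adjusted p of 0.0883, and of 0.0127 with the block.

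The 6 genes called lower were small changes of low signals. Gpx8, Ntmt2, Plcg2, Laptm5, Cox4i2 and Or4a15 differed by -0.48 to -0.63, and all 6 were among the dimmest genes, with a mean signal below 5.59 log2. In 5 of the 6 the control array at 2 h was the highest of the 7 arrays. Laptm5, a lysosomal protein of blood cells, had 4.40, 4.45, 4.48 and 4.58 in cytokine arrays, against 4.99, 4.59 and 5.23 in control arrays. None of the 6 was called with the control 1 h arrays as the reference of both hours, where adjusted p-values ran from 0.163 to 0.915, and none was called lower over 4 h and 6 h.

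The promoter elements shown above were counted in the promoters of the early genes. Promoter sequence was at hand for 73 of the 90 genes and for 13614 of all genes tested, and matches on both strands were counted without regard to overlap. The NF-kB consensus was in 26.0% of the 73 promoters and in 8.86% of all, GAS in 23.3% and 7.68%, and ISRE in 15.1% and 3.37%. Among the 16 promoters of genes called at 1 h, 56.2% held the NF-kB consensus and 56.2% GAS, and 4 of the 16 held an ISRE. Promoter sequence was at hand for 9 of the 14 genes with called growth in the second hour. Of these 9, 6 held GAS, 4 an ISRE and 2 the NF-kB consensus. Of the genes called higher over 4 h and 6 h and not in the mean of 1 h and 2 h, 332 had promoter sequence. In these 332 the NF-kB consensus was in 13.3%, GAS in 5.42% and ISRE in 14.5%. The CArG box, the element of serum response factor, was in 4.11% of the 73 promoters and 1.32% of all, and CRE (TGACGTCA), the element of cAMP-responsive factors, in 2.74% and 2.42%. A GAS followed after 2 bases by an ISRE, a spacing picked after these matches had been seen, was found in 3 of the 73 promoters (Igtp, Irgm and Parp14), in 0 of the 332 and in 4 of the 13614. These 3 genes were also among the 14 with called growth in the second hour.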

How the data were processed

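The deposited table holds 1 log2 signal value per probe set and array, as the authors processed it; the range of 2.27 to 14.46 and array medians of 6.54 to 6.62 fit a log2 scale normalized between arrays. How background, probe summaries and normalization were handled is not given in the sources here. Per the labels, total RNA was labelled with biotin by the standard Affymetrix protocol, and 15 control and 25 cytokine arrays cover 13 times. An array has no read depth, so the number of arrays limits the precision.

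Of 19239 probe sets 16592 have 1 gene symbol in the platform annotation and 2647 are unnamed here. Symbols were updated through RefSeq's gene table for 3333 of the 16453 probe sets found in it; 139 were not found and kept their symbol. This left 16587 symbols; for 5 symbols with several probe sets the one with the highest mean was used. No 2 arrays held identical values, and the 7 early arrays correlated at 0.986 to 0.996.

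A limma model (version 3.58.1, R 4.3.3) with 1 coefficient for each of the 26 groups of treatment and time used all 40 arrays (14 residual degrees of freedom, 6.055 prior ones), so that groups of 1 array borrow the spread of the others. Cytokine minus control was tested at 1 h, at 2 h and as their mean with equal weights, with the interaction (2 h minus 1 h), at 0 h, over 4 h and 6 h, and between the windows. P-values were adjusted by Benjamini-Hochberg over all genes at 0.05. The fit was tested on simulated data with known changes. There the arrays varied independently and the changes were equal at both hours, unlike the data here. The simulation thus checks the working of the fit and not the calls. The early comparisons share their control arrays with one another.

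Genes were named by a rule: the 15 highest and 10 lowest called mean differences of like sign at both hours, and the 6 highest and lowest at each hour. Added were the 10 highest and 6 lowest called differences between hours, the 4 smallest p-values of each list, the 6 highest and lowest called differences between windows, and a set of known response genes. Pdgfa, Mknk1, Mras, Rgs2, Runx1, Arid5a, Ubd, Serping1, Sgk1, Klf6, Jun, Cxcl2, Ccl20, Nfkb1, Nfkb2, Rela, Rel, Nr4a1, Tap2, Il15, Ltb, Cd74, Mlkl, Bmp2, Gna13, Samd9, Gbp1, Irf2, Jak1 and Dusp1 were added after their values had been seen. The arrays and the 24 lists (482 genes, 423 measured) were chosen with earlier results of these data known. Some genes of the lists and rule are not analysed here.

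Alternatives were a replicate block, other normalizations, filters and moderation, array weights, other control levels, only the early arrays, and leaving out each array; the control 1 h arrays as the only reference and the left-out arrays at 0, 4 and 6 h were added after the data had been seen. The fit had no replicate term; a block for the replicate number was an alternative. Same-numbered early arrays deviated together: the differences between replicate 2 and replicate 1 correlated at 0.287 to 0.432 between the 3 early groups that have both.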

Additional observations from a re-analysis of the deposited data

Results flagged for a closer look

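The difference between cytokine and control arrays differed between 1 h and 2 h in 14 genes by limma's test of that difference. It was larger at 2 h by 2.66 log2 units for Rtp4, 2.59 for Parp14, 2.49 for Igtp, 2.48 for Irgm, 2.26 for Cxcl9, 2.17 for Cxcl10, 2.08 for Ripk2 and 2.02 for Csf1. The growth was 1.92 for Cd69, 1.82 for Akap12, 1.62 for Icam1, 1.50 for Mknk1, 1.37 for Pdgfa and 1.21 for Mras.

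The difference also changed between the first 2 h and 4-6 h in genes named here, by the test of that change. All values are log2 differences over 4 h and 6 h minus those over 1 h and 2 h. Antiviral effectors and sensors grew by 5.79 for Mx2, 4.59 for Ifit1, 3.92 for Rsad2, 3.58 for Samd9, 3.20 for Parp14, 2.54 for Ifi44, 2.45 for Parp9, 2.02 for Ifih1 and 1.53 for Dtx3l, and their regulators by 3.28 for Usp18 and 2.73 for Rtp4. GTPases grew by 4.12 for Gbp2, 3.98 for Ifgga4l, 3.92 for Gbp5, 1.91 for Ifi47, 1.85 for Irgm and 1.33 for Igtp. Signalling and transcription genes grew by 1.99 for Stat2, 1.99 for Irf7, 1.25 for Jak2, 1.02 for Stat3 and 0.95 for Irf2.

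Chemokine genes grew by 2.23 for Cxcl11, 1.87 for Cxcl9, 1.73 for Ccl2, 1.43 for Cxcl10, 1.42 for Cxcl1 and 1.23 for Cxcl2. Cytokine and related genes grew by 2.43 for Tnfsf10, 2.12 for Ltb, 1.78 for Il15, 1.51 for Tnfrsf11b and 1.31 for Tnf. Genes of antigen presentation and cell contact grew by 3.10 for Cd74, 2.46 for Psmb8, 2.32 for Tap2, 2.08 for Tap1, 1.99 for Psmb9, 1.97 for Cd69, 1.33 for B2m and 1.14 for Icam1. Genes of cell death and its control grew by 1.94 for Mlkl, 1.93 for Ripk2, 1.15 for Birc3 and 1.08 for Fas.

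Of the remaining genes the growth was 3.36 for Nos2, 3.30 for Ubd, 2.03 for Serping1, 1.55 for Pfkp, 1.39 for Zc3h12a, 0.98 for Wars1 and 0.74 for Nampt. For the dim genes Cox4i2, Laptm5 and Or7g33c it was 0.83, 0.71 and 0.60, with early differences below 0. The change was downward, by -1.15 for Lmo3, -0.96 for St3gal1, -0.94 for Nfkbiz, -0.82 for Efnb2, -0.82 for Slc40a1 and -0.79 for Arhgef3. Apart from Nfkbiz these had no called early difference.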

How the results depend on the processing

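With only the 7 arrays in the fit the mean of both hours gave 11 calls, 1 h 11 and the difference between hours 9, 1 of them lower and 4 of them among the 14 genes named; for the mean, the change between hours then counts as error by construction. With replicate 1 arrays only the mean gave 0 calls. With 1 control level for both hours there were 159 calls at 2 h and 50 for the difference between hours. With the control 1 h arrays as the only reference there were 53 for that difference. In both settings the control cancels out of the difference between hours, which is then the change in cytokine arrays alone. The replicate block gave 25 calls for the difference between hours and 297 between the windows, 248 upward and 49 downward. It moved no other total by over 1.5 times, but lower calls were 10 (against 6 without it) in the mean, 10 (against 5) at 2 h and 276 (against 102) over 4 h and 6 h. Between the windows the deviations of cytokine 4 h and 6 h arrays correlated at -0.047 to 0.052 with those of cytokine 1 h and 2 h arrays. With those of the control 1 h arrays they correlated at 0.239 (4 h) and 0.156 (6 h). Whether the numbers pair arrays between the windows is thus unclear. All 90 early genes were called with the replicate block, and 14 named genes gained a call in the mean. Among these were Cdh5 (adjusted p = 0.0444), Ifgga4l (0.00114), Myd88 (0.0213), Ppp1r15a (0.0464) and Sod2 (0.0126). Leaving out 1 array at a time gave 17 (control 2 h) to 218 (control 1 h replicate 2) calls for the mean, 8 (control 1 h replicate 1) to 52 (control 1 h replicate 2) at 1 h and 61 (cytokine 2 h replicate 1) to 93 at 2 h. It gave 1 (cytokine 1 h replicate 2) to 14 for the difference between hours, 0 to 92 (control 0 h replicate 2) at 0 h, 268 (control 6 h) to 599 over 4 h and 6 h, and 79 (control 6 h) to 199 between the windows. The cause was not tested. Quantile normalization, median centring, the filter on dim genes, other moderation, array weights and mean probe sets kept 80 to 90 of the 90 early genes; the filter removed all 6 lower ones. Of 3652 gene values under an alternative 3281 kept their side of the threshold, 347 lost and 24 gained a call; none that was called changed sign, and 53 not called in either fit did.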
